A study of Mus musculus with 21 samples.

Results

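DC0 wells are single cells of mouse back skin whose names in the deposited table begin with DC0, the lowest number among the wells named for the dermal condensate (DC). They were taken by that name, and wells with fewer than 1000 UMIs were dropped (a UMI, or unique molecular identifier, marks one captured RNA molecule). The table held 149 DC0 wells among 1967 wells, and 130 of them were kept. Library 8 held 107 of the kept wells, and libraries 1 to 7 held 2 to 6 each, 23 in all. The wells set beside them were 1284 of 1371 fibroblast-named (Fb) wells, 147 of 152 DC1 wells and 106 of 151 DC2 wells. The 144 wells named for spike-in RNA were left out.

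A dermal condensate is a cluster of fibroblasts that gathers under the epidermis at each site where a hair follicle will form. It signals to the epidermal placode above it and later becomes the dermal papilla of the follicle. Its cells are known for leaving the cell cycle, for WNT, FGF and hedgehog signalling received from the epidermis, and for transcription factors such as Sox2, Sox18, Foxd1 and Prdm1.

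All wells came from dorsal skin of CD1 mouse embryos at E15.0, an embryonic stage counted in days, with no treatment named in the labels. Live cells were sorted by flow cytometry into plates, and RNA was counted by SORT-seq, a plate-based method that runs the CEL-Seq2 chemistry with robots. The labels name neither the sort markers nor the source of the eGFP transcript listed among the genes. They also do not say whether the 9 single-cell libraries were made from different embryos. The p-values therefore rest on library-to-library spread, and that spread may be technical. A further 12 bulk samples were not analysed here.

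The labels do not define DC0, and they do not say whether a well got its name from the sort or from clusters of cells, the approach by which the series text says condensate stages were found. In library 8 the DC0 names filled wells 123 to 246 without a gap. In libraries 1 to 7 they were scattered among Fb wells. Where names followed clusters made from the same cells, the genes that separate the populations took part in choosing the wells, and a p-value for them is then a description rather than an independent test. This limit holds for every comparison between populations given here.

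Kept DC0 wells had a median of 13810 UMIs, with a range of 1000 to 60704, against 19945.5 UMIs for kept Fb wells. Library 8 differed from libraries 1 to 7 in its share of ribosomal RNA transcripts, which was 0.484% of UMIs in the median DC0 well of library 8, 3.49% in DC0 wells of libraries 1 to 7 and 3.93% in Fb wells. Library 8 held no Fb and no DC1 wells. Populations were therefore compared as sums of wells within a library, with the library as a block in edgeR's quasi-likelihood model, over 29 sums from libraries 1 to 8. Levels are given as CPM, the UMIs of a gene in a sum scaled to a total of 1000000 UMIs. Fold changes are log2 values from that model with their standard error (SE) and a Benjamini-Hochberg adjusted p over the 2140 genes that passed the filter on low counts.

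The label was first checked against the condensate markers Twist2, Lef1, Foxd1, Prdm1 and Sox2. All 5 were higher in DC0 than in Fb sums, where 12.8% of the 2140 genes tested were called higher. Foxd1, a forkhead transcription factor (chromosome 13, 98354242 to 98359305, plus strand, mm10), had 145 to 892 CPM with a median of 275 CPM in DC0 sums of libraries 1 to 7, against 2.73 to 13.7 CPM with a median of 7.18 CPM in Fb sums of the same libraries. Every DC0 sum lay above every Fb sum, and the DC0 sum of library 8 had 482 CPM. In a sum alone, more wells with a gene and more molecules per well cannot be told apart. The fold change of Foxd1 was 5.41 (SE 0.277, edgeR adjusted p = 1.21e-15, higher in 7 of 7 libraries).

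Prdm1 (Blimp1, chromosome 10, 44437177 to 44528501, minus strand), a transcriptional repressor of dermal papilla precursors, had 92.4 to 777 CPM with a median of 290 CPM in DC0 sums, against 8.38 to 16.2 CPM in Fb sums. Its ranges did not overlap, and its fold change was 4.38 (SE 0.345, edgeR adjusted p = 1.14e-11). Lef1 (chromosome 3, 131110471 to 131224356, plus strand), a nuclear partner of beta-catenin in WNT signalling, had 123 to 1641 CPM in DC0 sums and 59.5 to 108 CPM in Fb sums. It was higher by 2.58 (SE 0.261, edgeR adjusted p = 2.84e-09), again with no overlap.

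Sox2 (chromosome 3, 34650405 to 34652461, plus strand), a transcription factor that marks the papillae of some follicle types, was not seen in every DC0 sum. It had 0 CPM in library 3, 15.4 CPM in library 7 and 99.9 to 328 CPM in the other 5, against 0.263 to 2.44 CPM in Fb sums. Its fold change was 6.64 (SE 0.552, edgeR adjusted p = 3.17e-11), with DC0 higher in 6 of 7 libraries and lower in library 3.

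Twist2 (chromosome 1, 91801461 to 91848028, plus strand), a bHLH factor of dermal fibroblasts, was present in both populations. DC0 sums had 1186 to 3815 CPM with a median of 2106 CPM, against 884 to 1109 CPM in Fb sums, and the lowest DC0 sum lay above the highest Fb sum. The rise of 1.12 (SE 0.165, edgeR adjusted p = 2.59e-06) was the smallest of the 5 markers.

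**Figure D1:**
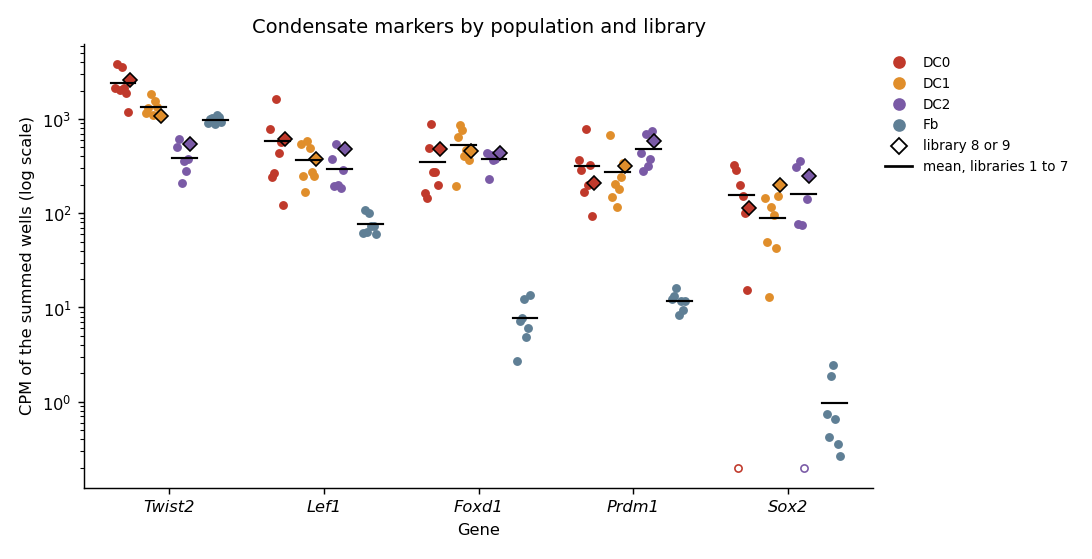
CPM (log scale) of 5 condensate markers in the summed wells of each population and library, where each dot is a library of 1 to 7, diamonds are library 8 or 9, lines are means over libraries 1 to 7, and open circles at the foot of the axis are sums with 0 UMIs. DC0 sums lie above all Fb sums for Twist2, Lef1, Foxd1 and Prdm1, while 1 DC0 sum has no Sox2.

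Markers of most other cell types were low in DC0 sums. Summed over its list, the 11 epidermal genes reached 0 to 435 CPM in DC0 sums of libraries 1 to 7 and 48.6 to 559 CPM in Fb sums, and the 9 immune genes 0 to 123 CPM and 14.9 to 28.5 CPM in the same order of populations. The 8 mural cell genes reached 57.5 to 267 CPM in DC0 sums and 149 to 210 CPM in Fb sums, and the 7 neuron genes had medians of 140 CPM in DC0 sums and 138 CPM in Fb sums. Over the DC0 sums, Trp63 of epidermis, Tyrp1 and Mlana of melanocytes, Cldn5 and Tie1 of endothelium, Rgs5 and Myh11 of mural cells, C1qa and Lyz2 of macrophages, and Elavl3 and Snap25 of neurons had 0 UMIs. Other members of these lists were present, with 276 UMIs for Stmn2 of the neuron list, 83 for Tagln and 55 for Cspg4 of the mural list and 51 for Krt5 of the epidermal list. Among 8 Schwann cell genes, Sox10 stood apart with 103 UMIs, against 9 for Foxd3 and 9 for Fabp7. After each well was thinned to 3000 UMIs, Sox10 was seen in 19 of 94 DC0 wells of library 8 (20.2%, exact 95% binomial interval 12.6% to 29.8%), against 13 of 65 DC2 wells of library 8 and 52 of 1155 Fb wells (4.50%). The part of these markers in the results was not tested. The 8 fibroblast markers were present at a lower level, 11200 to 20300 CPM in DC0 sums against 44500 to 54900 CPM in Fb sums.

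Compared with Fb sums, DC0 sums had higher levels of condensate signals, transcription factors and cell cycle inhibitors and lower levels of collagens and other matrix genes. Of 2140 genes, 273 were higher (12.8%) and 296 lower (13.8%), 26.6% in all. Within libraries 3, 5, 6 and 7, which share a sequencing run, 410 genes were called, and 221 within the other libraries, where 1260 genes passed the filter. The 12 largest rises that held in all 7 libraries were eGFP, Sox18, Foxd1, Prdm1, Glis1, Bmp7, Avpr1a, Bmp4, Nrtn, Dclk1, Edn3 and Fgf10, with fold changes of 3.33 to 6.87. The 12 largest falls were Lox, Dpt, Ogn, Cxcl12, Agtr2, Islr, Cxcl1, Thbs2, Aspn, Itm2a, Kitl and Pcolce, with fold changes of -5.13 to -3.21. None of these 24 calls was lost under any alternative in which the gene was tested.

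Several secreted signals were among the rises, below eGFP, Sox2, Sox18, Foxd1 and Prdm1 in size. Bmp4, a bone morphogenetic protein, had 169 to 1410 CPM with a median of 676 CPM in DC0 sums, against 37.2 to 61.1 CPM in Fb sums, and the ranges did not overlap (fold change 3.495, SE 0.351, edgeR adjusted p = 2.43e-09). Bmp7 was higher by 3.90 (SE 0.346) and Fgf10, a growth factor that acts on epithelium, by 3.33 (SE 0.245). Edn3, the endothelin that acts on pigment cell precursors, was higher by 3.43 (SE 0.392), and Nrtn, a neurotrophic factor of the GDNF family, by 3.49 (SE 0.390). Of the 25 listed condensate signals 13 passed the filter on low counts, and of these 9 were higher and 1 was lower, with a median fold change of 2.77 beside 0.02 over all genes tested. The signal that fell was Cxcl12, a chemokine of fibroblasts, with 0 to 48.3 CPM in DC0 sums against 160 to 215 CPM in Fb sums (fold change -3.92, SE 0.465). A gene as low in Fb sums as Bmp4 passes the filter only through its level in condensate sums. Such members could enter the count as rises but hardly as falls, so the count is a description. The same limit holds for the other list counts, where a gene low in 1 population enters through another. With no filter, 20.6% of all calls against Fb were higher, in place of 48%.

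Dll1 and Inhba were sparse in DC0. Dll1, a Notch ligand, had 4 UMIs in all DC0 sums of libraries 1 to 7, from libraries 4 and 6, and 49 UMIs (33.5 CPM) in library 8, against 0.169 to 1.40 CPM in Fb sums. Its call as higher (fold change 4.18, SE 0.691, edgeR adjusted p = 1.66e-05) therefore rests on few molecules. Inhba, a subunit of activin, had 0 to 41.0 CPM in DC0 sums against 21.1 to 45.2 CPM in Fb sums, so that the ranges overlapped.

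Of 68 listed transcription factors 35 passed the filter, among them the 5 markers. Of these 17 were higher and 5 lower, with a median fold change of 0.80. After Sox2 the largest was Sox18, a factor of dermal papilla and vessel cells, with 31.4 to 574 CPM in DC0 sums against 0.332 to 10.5 CPM in Fb sums (6.11, SE 0.466). Sums of DC0 in libraries 3 and 5 were the lowest for Sox18, and none overlapped the Fb sums. Glis1, a zinc finger factor, was higher by 4.02 (SE 0.333), Trps1 by 2.97 (SE 0.199), Tbx18, a T-box factor of papilla precursors, by 2.74 (SE 0.287) and Sox11 by 2.71 (SE 0.218). The 5 that fell were Nfib, Nfia, Nfix, Nfic and Osr1, and the calls of Nfic and Osr1 were lost in 7 and 2 alternatives. Nfib, of the nuclear factor I family, had 0 to 293 CPM in DC0 sums against 607 to 836 CPM in Fb sums (-2.71, SE 0.292).

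In the pathways that the epidermis is known to drive, targets and receptors did not move alike. Gli1, a direct target of hedgehog signalling, had 246 to 483 CPM in DC0 sums against 54.2 to 71.4 CPM in Fb sums, with no overlap (2.35, SE 0.177, edgeR adjusted p = 4.97e-12). The hedgehog co-receptors Cdon, Gas1 and Boc fell, by 1.90, 1.55 and 1.32 on the log2 scale. With Hhip and Gli2 also higher, 3 of 7 hedgehog genes tested, of 14 listed, rose and 3 fell. Ptch1, another hedgehog target, did not pass the filter, with 0 to 49.96 CPM in DC0 sums against 2.10 to 5.07 CPM in Fb sums.

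Of 14 WNT pathway genes tested, of 46 listed, 7 were higher, among them Ctnnb1 (beta-catenin, 1.29, SE 0.152), the feedback inhibitor Nkd1 (1.12) and the secreted inhibitor Wif1 (1.23), and Sfrp2 was lower (-2.63, SE 0.483). Axin2, a common WNT target, had 0 to 338 CPM in DC0 sums and 40.5 to 73.6 CPM in Fb sums, with overlap on both sides. Of 6 FGF pathway genes, Fgf10, Spred1 and Dusp6 were higher and 0 were lower, with the call of Dusp6 lost in 4 alternatives. Spred1, an inhibitor induced by FGF signalling, had 324 to 821 CPM in DC0 sums against 180 to 213 CPM in Fb sums (1.30, SE 0.185). The Notch targets Hey1 and Heyl were called higher by 1.97 and 3.35, but each had 0 UMIs in at least 2 DC0 sums. Of 20 BMP and TGF-beta genes 5 were higher, among them Fst, an antagonist of activin and BMPs, and 3 were lower.

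**Figure D2:**
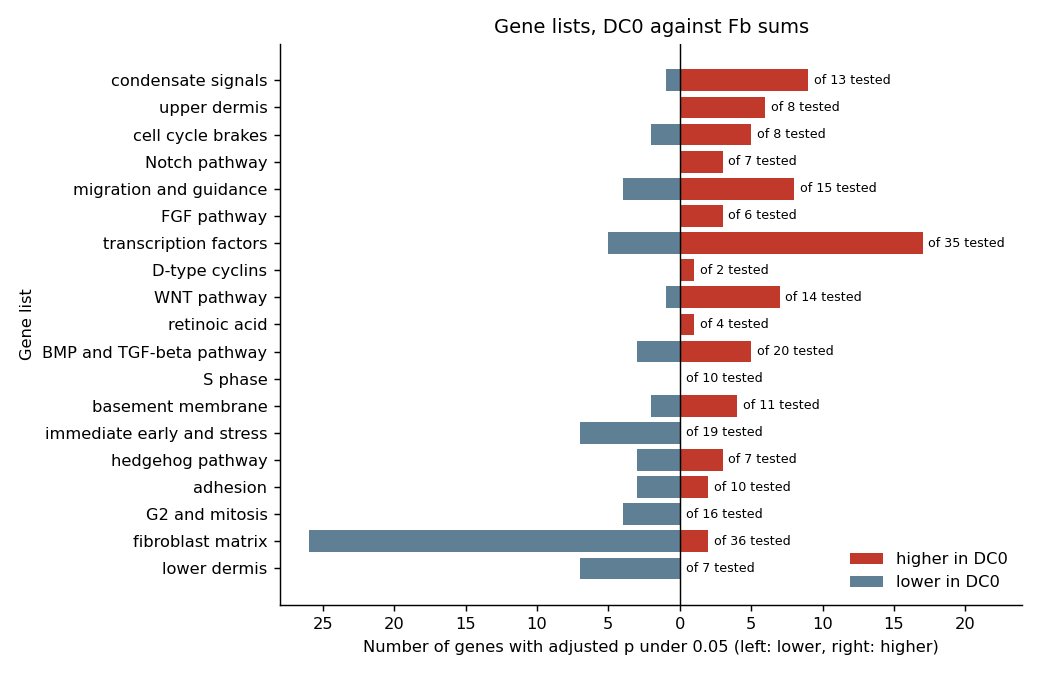
Number of genes in each list that were higher (right, red) or lower (left, blue) in DC0 than in Fb sums at an edgeR adjusted p under 0.05, with the number tested beside each bar and lists ordered by their median fold change. Fibroblast matrix has the longest bar to the left, 26 of 36 tested, and transcription factors the longest to the right, 17 of 35.

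Matrix genes fell as a group. Of 36 fibroblast matrix genes tested, of 45 listed, 26 were lower and 2 higher, with a median fold change of -1.37. Col1a1, a chain of type I collagen, had 748 to 3650 CPM in DC0 sums against 4358 to 11750 CPM in Fb sums (-2.28, SE 0.185, edgeR adjusted p = 2.11e-11). Type III collagen fell less: Col3a1 had 6170 to 11140 CPM in DC0 sums against 14640 to 19930 CPM in Fb sums (-0.94, SE 0.140). Lox, a lysyl oxidase that crosslinks collagen, had 0 UMIs in all DC0 sums of libraries 1 to 7 and 7 UMIs in library 8, against 117 to 192 CPM in Fb sums. Taking 3 UMIs over those 7 sums as the floor, Lox was at least 22.9-fold lower in DC0. The fitted fold change of -5.13 depends on the prior count. The 2 matrix genes that rose were Fbln2, a fibulin (1.34, SE 0.166), and Loxl2, a lysyl oxidase relative (1.17, SE 0.175).

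Agtr2, an angiotensin receptor of embryonic mesenchyme, had 15.4 to 164 CPM in DC0 sums against 836 to 1403 CPM in Fb sums (-3.90, SE 0.389). The 7 tested genes of the lower dermis list, namely Mest, Igf2, Plagl1, Dlk1, H19, Peg3 and Pdgfra, were all lower, with a median fold change of -2.13. Many of them are imprinted growth genes, and Igf2 had 369 to 1111 CPM in DC0 sums against 3525 to 5815 CPM in Fb sums. Of 8 upper dermis genes 6 were higher and 0 lower, but 3 of those 6 are the markers Prdm1, Lef1 and Twist2. The others were Cyp26b1, a retinoic acid degrading enzyme (3.26, SE 0.232), Wif1 and Nkd1. Of 19 immediate early and stress genes 7 were lower and 0 higher, among them Fos (-1.005, SE 0.240), Fosb and Junb.

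Several inhibitors of the cell cycle rose, and few genes of division passed the test. Cdkn1a (p21, chromosome 17, 29090976 to 29100727, plus strand), which blocks cyclin-dependent kinases, had 46.2 CPM in the DC0 sum of library 7 and 660 to 2366 CPM in the other 6, against 27.6 to 73.9 CPM in Fb sums. DC0 was higher in 6 of 7 libraries, and the fold change was 4.11 (SE 0.416, edgeR adjusted p = 2.80e-09). Plk2, a kinase induced on stress, was higher by 3.26 (SE 0.338). Of the 8 genes tested in the list of cell cycle inhibitors 5 rose, with Gas1 and Btg2 lower. Ccnd1, the cyclin D1 of G1 phase, also rose, by 1.60 (SE 0.216), with 416 to 3281 CPM in DC0 sums against 305 to 453 CPM in Fb sums. Of 10 S phase genes 0 passed the test in either direction. Of 16 G2 and mitosis genes Ube2c, Cks2, Ccna2 and Tubb4b were lower and 0 higher, and these calls were lost in 4, 4, 9 and 5 alternatives, each within the shared sequencing run among them. The division marker Mki67 had 1617 CPM in the DC0 sum of library 7 and 0 to 402 CPM in the other 6, against 284 to 502 CPM in Fb sums, and did not pass the test (-0.79, SE 0.564, edgeR adjusted p = 0.332). In the DC0 sum of library 7, 60704 of 64925 UMIs came from 1 well, and that well held Mki67.

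Genes of migration and guidance included Dclk1, a microtubule-associated kinase (3.43, SE 0.244), Sema6a (2.11, SE 0.203) and the semaphorin receptor Nrp2 (2.05, SE 0.249), among 8 of 15 tested that were higher and 4 that were lower. Cxcr4, the receptor of Cxcl12, was called higher by 2.53 (SE 0.623, edgeR adjusted p = 0.00217), but in libraries 1 to 7 it averaged 5.81 ± 10.3 CPM in DC0 sums and 3.80 ± 2.50 CPM in Fb sums (SD, n = 7 libraries each), and the call was lost without library 8 (1.23, edgeR adjusted p = 0.426) and within or outside the shared sequencing run. Of 10 adhesion genes, Sdc1 (syndecan 1) and Cd44 were higher and Vcam1, Cd47 and Itgb1 lower, with the call of Itgb1 lost in 5 alternatives. The 11 basement membrane genes were split, with 4 higher and 2 lower.

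Against DC1 sums few genes separated DC0. Of 2140 genes, 4 were higher (0.187%) and 23 lower (1.07%), 1.26% in all. Within the libraries of the shared sequencing run 2 genes were called. Within the other libraries edgeR called 0 of 1260, with 120 at an unadjusted p under 0.05, and without library 5 it called 17. DESeq2 called 33 over all libraries. Foxd1, Sox2, Prdm1 and Lef1 did not pass the test, with fold changes of -0.66 (SE 0.252), 0.48 (SE 0.535), 0.01 (SE 0.3529) and 0.44 (SE 0.282), which does not show that their levels are alike.

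The genes lower in DC0 than in DC1 by the naming rule were Adamts15, Pdlim3, Frzb, Cxcr4, Nrp2, Fzd2, Smoc1 and Igfbp4. Igfbp4, which binds insulin-like growth factors, had 259 to 1124 CPM with a median of 716 CPM in DC0 sums, against 1130 to 2122 CPM with a median of 1441 CPM in DC1 sums of libraries 1 to 7. The highest DC0 sum lay just below the lowest DC1 sum, and the fold change was -1.15 (SE 0.191, edgeR adjusted p = 0.00151). Cxcr4 had 0 UMIs in 5 of 7 DC0 sums and 24.98 CPM at most, against 61.4 to 398 CPM in DC1 sums (-2.66, SE 0.557). Frzb, a secreted WNT inhibitor, and Adamts15, a matrix protease, were at 0 in 4 and 5 of those DC0 sums.

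Nrp2 was lower in DC0 than in DC1 by 1.42 on the log2 scale (fold change -1.42, SE 0.251) although it was higher in DC0 than in Fb, as was Smoc1, a BMP-binding matrix protein (-1.22, SE 0.293). Twist2 was higher in DC0 than in DC1, with 1186 to 3815 CPM against 1074 to 1821 CPM (0.74, SE 0.175, edgeR adjusted p = 0.0221), as was Crabp1, a retinoic acid binding protein of upper dermis (1.36, SE 0.3526, edgeR adjusted p = 0.0430). These 2 calls were lost in 9 and 11 of the alternatives. The calls of Igfbp4, Nrp2, Fzd2, Frzb, Pdlim3 and Cxcr4 were lost both within and outside the shared sequencing run, that of Adamts15 outside it, and that of Smoc1 in 10 alternatives.

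Against DC2 sums 9.53% of genes were higher in DC0 and 177 were lower (8.27%), 17.8% in all. Without library 8 there were 219 calls, within the shared sequencing run 150, and outside it 77. Genes of DNA replication were higher in DC0: of 10 S phase genes tested 8 passed and 0 were lower, with a median fold change of 1.62 beside 0.02 over all genes tested. Mcm3, a subunit of the replicative helicase, had 48.3 to 262 CPM in DC0 sums of libraries 1 to 7 against 0 to 41.9 CPM in DC2 sums of libraries 2 to 7 (2.90, SE 0.425, edgeR adjusted p = 9.20e-06). In library 8, where both populations had many wells, Mcm3 had 81.2 CPM in DC0 and 15.7 CPM in DC2. Ccnd1 followed with 1186 CPM in DC0 and 265 CPM in DC2 of library 8 (2.06, SE 0.250).

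Twist2 and Crabp1 were also higher in DC0 than in DC2. Twist2 had 1186 to 3815 CPM in DC0 sums and 209 to 606 CPM in DC2 sums (2.51, SE 0.195, edgeR adjusted p = 6.55e-11), with no overlap. Crabp1 had 293 CPM in the DC0 sum of library 7 and 3410 to 6879 CPM in the other 6, against 186 to 628 CPM in DC2 sums (3.35, SE 0.401). Of 36 matrix genes tested 9 were higher and 8 lower in DC0 than in DC2. Eln (elastin) and Lum (lumican) were higher, by 3.23 and 1.87, and Col14a1, Fbln2 and Vcan were among the lower.

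The genes lower in DC0 than in DC2 were led by Lrrc15, Tspan7, Adamts15, Inhba, Dll1, Cxcr4, Sobp and Apod. Inhba had 0 to 41.0 CPM in DC0 sums against 188 to 652 CPM in DC2 sums (-4.55, SE 0.372, edgeR adjusted p = 1.47e-10). In library 8 it had 13.0 CPM in DC0 and 397 CPM in DC2. Of 7 Notch pathway genes tested, of 20 listed, Dll1, Hey1, Notch1 and Heyl were lower, with a median fold change of -2.31. Dll1, sparse in DC0, passed the filter through other sums, so this count is a description. Rspo3, which strengthens WNT signalling, was lower by 2.56 on the log2 scale (fold change -2.56, SE 0.354). Foxd1 did not differ beyond its error (0.12, SE 0.248, edgeR adjusted p = 0.802).

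To find genes at an extreme in DC0, its level was set against the mean of the other 3 populations, and genes were kept whose fitted level in DC0 lay at least 0.5 log2 units outside all 3. The test against that mean called 76 genes higher (3.55%) and 57 lower (2.66%), 6.21% in all. Within the shared sequencing run 44 genes were called, outside it 48, and without library 5 there were 88 calls. Lying outside all 3 populations were 12 of the higher and 21 of the lower genes. The 8 largest rises were Cdkn1a, Fst, Cblb, Tbx18, Crabp1, Twist2, Ccnd1 and Csrp1. All 8 were also called higher against DC2 alone, the calls of Cdkn1a, Fst, Cblb and Tbx18 being lost in 9, 2, 2 and 1 alternatives. Against Fb alone all but Crabp1 were called higher, and Crabp1 did not pass the test (0.60, SE 0.325, edgeR adjusted p = 0.187). Against DC1 alone only Twist2 and Crabp1 passed the test. The edgeR adjusted p against DC1 was 0.531 for Cdkn1a, 0.195 for Fst, 0.0710 for Cblb, 0.142 for Tbx18, 0.329 for Ccnd1 and 0.354 for Csrp1, and the sums of DC0 and DC1 overlapped for all 8 genes.

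Cdkn1a had a median of 894 CPM over DC0 sums of libraries 1 to 7, against 404 CPM in DC1, 353.1 CPM in DC2 and 50.7 CPM in Fb sums (fold change 2.08 against the mean of those 3, SE 0.321, edgeR adjusted p = 6.31e-05). Cblb, a ubiquitin ligase that damps receptor signalling, had 46.2 to 1159 CPM with a median of 547 CPM in DC0 sums, against 0 to 449 CPM in DC1, 25.6 to 230 CPM in DC2 and 45.6 to 91.3 CPM in Fb sums (1.89 against their mean, SE 0.275). Tbx18 had a median of 656 CPM in DC0 sums, against 276 CPM in DC1, 124 CPM in DC2 and 74.8 CPM in Fb sums (1.83, SE 0.240). In library 8 the Tbx18 levels were close too, at 254 CPM in DC0 and 208 CPM in DC2. Fst was uneven between DC0 sums, with 0 CPM in library 1 and 800 CPM in library 3.

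At the low end were Inhba, Olfml3, Matn2, Col14a1, Sfrp2, Postn, Csrp2 and Cst3. Against DC1 alone only Inhba passed the test. The edgeR adjusted p against DC1 was 0.0572 for Olfml3 and 0.291 to 0.868 for the others. Against DC2 alone Postn did not pass (edgeR adjusted p = 0.509). Against Fb alone Csrp2 and Inhba did not pass (edgeR adjusted p = 0.172 and 0.247). Postn (periostin), a matrix protein, had 140 ± 106 CPM in DC0 sums, against 324 ± 240 CPM in DC1, 345 ± 405 CPM in DC2 and 970 ± 123 CPM in Fb sums (SD, n = 7 libraries, 6 for DC2). Its call was lost in 5 of the alternatives, as were those of Sfrp2 and Matn2.

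**Figure D3:**
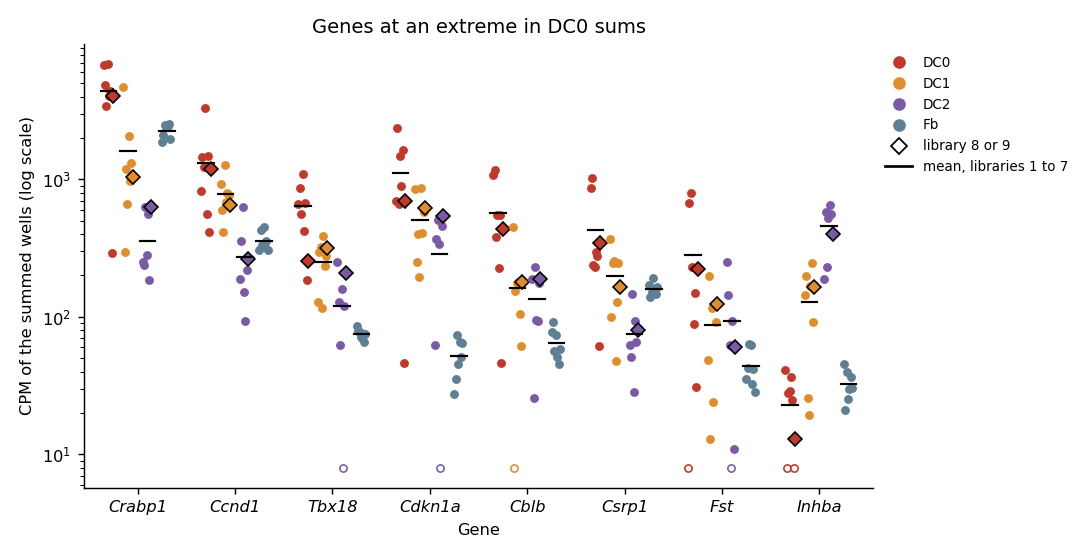
CPM (log scale) by population and library for 7 genes that lie highest and 1 that lies lowest in DC0 by fitted level, with dots for libraries 1 to 7, diamonds for library 8 or 9, lines for means over libraries 1 to 7 and open circles at the foot of the axis for 0 UMIs. The DC0 sum of library 7 lies far below the other DC0 sums for Crabp1, Cdkn1a and Cblb. In that sum 60704 of 64925 UMIs came from 1 well.

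Single wells of library 8, the plate with most DC0 wells, were thinned to 3000 UMIs so that shares of wells with a UMI could be compared. This kept 94 of 107 DC0 wells, 65 of 80 DC2 wells of the same plate, 21 of 23 DC0 wells of libraries 1 to 7 and 1155 of 1284 Fb wells. Their median depths before thinning were 14742, 13849, 17589 and 22660 UMIs. Intervals for shares are exact 95% binomial intervals and cover counting error only.

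Some genes were present in nearly every DC0 well. A UMI was seen in all 94 wells for 54 genes and in at least 95% of wells for 111. Of the listed genes 11 reached that share, and they were mostly fibroblast genes: the collagens Col3a1, Col6a2, Col1a2, Col6a1, Col6a3 and Col1a1 and the follistatin-like Fstl1. With them stood Twist2, Ctnnb1, the immediate early gene Jun and the chaperone Hspa8. Col3a1 had 7 to 63 UMIs per thinned well with a median of 25, and Twist2 had 0 to 20 with a median of 8.

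The markers were not all seen in the same wells. Twist2 was seen in 90 of 94 DC0 wells of library 8 (95.7%, interval 89.5% to 98.8%), against 997 of 1155 Fb wells (86.3%). Lef1 was seen in 76 DC0 wells (80.9%, interval 71.4% to 88.2%), against 254 of 1155 Fb wells (interval 19.6% to 24.5%). Foxd1 was seen in 67 DC0 wells (71.3%, interval 61.0% to 80.1%), against 20 Fb wells (1.73%).

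Prdm1 and Sox2 were seen in a minority of the DC0 wells of library 8. Prdm1 was seen in 34 of 94 (36.2%, interval 26.5% to 46.7%), against 42 of 65 DC2 wells (64.6%, interval 51.8% to 76.1%) and 38 Fb wells (3.29%). Sox2 was seen in 17 of 94 (18.1%, interval 10.9% to 27.4%), against 36 of 65 DC2 wells (55.4%, interval 42.5% to 67.7%) and 1 Fb well (0.0866%). In DC0 wells of libraries 1 to 7, Prdm1 was seen in 11 of 21 (52.4%, interval 29.8% to 74.3%) and Sox2 in 7 of 21 (33.3%, interval 14.6% to 57.0%). Without thinning, Sox2 was seen in 44.9% of the 107 DC0 wells of library 8. Between DC0 and DC2 sums Sox2 did not pass the test (-0.51, SE 0.454, edgeR adjusted p = 0.475). Prdm1 was called lower in DC0 (-0.94, SE 0.319, edgeR adjusted p = 0.0381), a call lost in 9 alternatives. eGFP was seen in 21 of 94 DC0 wells of library 8 (22.3%), and 4 of these also had Sox2. In libraries 1 to 7 it was seen in 10 of 21 DC0 wells, and 5 of these also had Sox2.

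Counting the 5 markers per well, 37 of the 94 DC0 wells held 3, 27 held 4, 19 held 2, 7 held 1 and 4 held all 5, and every well held at least 1. Of the 21 DC0 wells in libraries 1 to 7, 8 held 3 markers, 7 held 4 and 2 held all 5. Most Fb wells, 733 of 1155, held 1 marker, and 22 held 3 or more.

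Cxcr4 and Dll1, which were lower in DC0 than in DC2 sums, were seen in few DC0 wells. Cxcr4 was seen in 14 of 94 DC0 wells (14.9%, interval 8.39% to 23.7%), against 49 of 65 DC2 wells (75.4%, interval 63.1% to 85.2%). Dll1 was seen in 8 DC0 wells (8.51%), against 38 DC2 wells (58.5%). Both genes were seen together in 3 DC0 wells.

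The spread between DC0 wells was measured as the variance over the mean of thinned UMIs, which is about 1 for counting noise alone. Of 954 genes with a mean of at least 0.5 UMIs, 38 (3.98%) had a ratio of at least 3, and the median ratio was 1.29. In DC0 wells of libraries 1 to 7 it was 38 of 1018 genes, in DC2 wells of library 8 30 of 1024. The 15 highest were the ribosomal RNA rows Rn45s and mt-Rnr2, the row Mir5109, Kcnq1ot1, Cdkn1c, Crabp1, Igf2, H19, Col3a1, Col1a2, Tuba1b, Gm17821, Postn, Malat1 and Col1a1. Cdkn1c, Kcnq1ot1, Igf2 and H19 lie in imprinted regions.

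Cdkn1c (p57), a cyclin-dependent kinase inhibitor, had 0 to 38 UMIs per well with a median of 2 and a ratio of 11.8. It was unevenly spread between libraries too, with 410 CPM in the DC0 sum of library 1, 924 CPM in library 7, 1824 CPM in library 8 and 4796 to 6265 CPM in the other 5. Its difference between DC0 and Fb sums did not pass the test (0.88, SE 0.458, edgeR adjusted p = 0.161). Against DC2 sums Cdkn1c was called higher (2.10, SE 0.544, edgeR adjusted p = 0.00681), with DC0 higher in 5 of 7 libraries. Its spread was not particular to these wells. The ratio was 25.7 in DC0 wells of libraries 1 to 7, 21.5 in DC2 wells of library 8, 14.6 in DC1 wells of library 9 and 6.23 in Fb wells. Crabp1 had 0 to 63 UMIs per well with a median of 10 and a ratio of 11.2. Cdkn1a had 0 to 16 UMIs with a median of 1 and a ratio of 3.93, and Bmp4 0 to 12 UMIs with a median of 0 and a ratio of 3.65. Division genes were on the same list, with ratios of 4.13 for Ube2c, 3.48 for Top2a and 3.68 for Hmgb2.

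**Figure D4:**
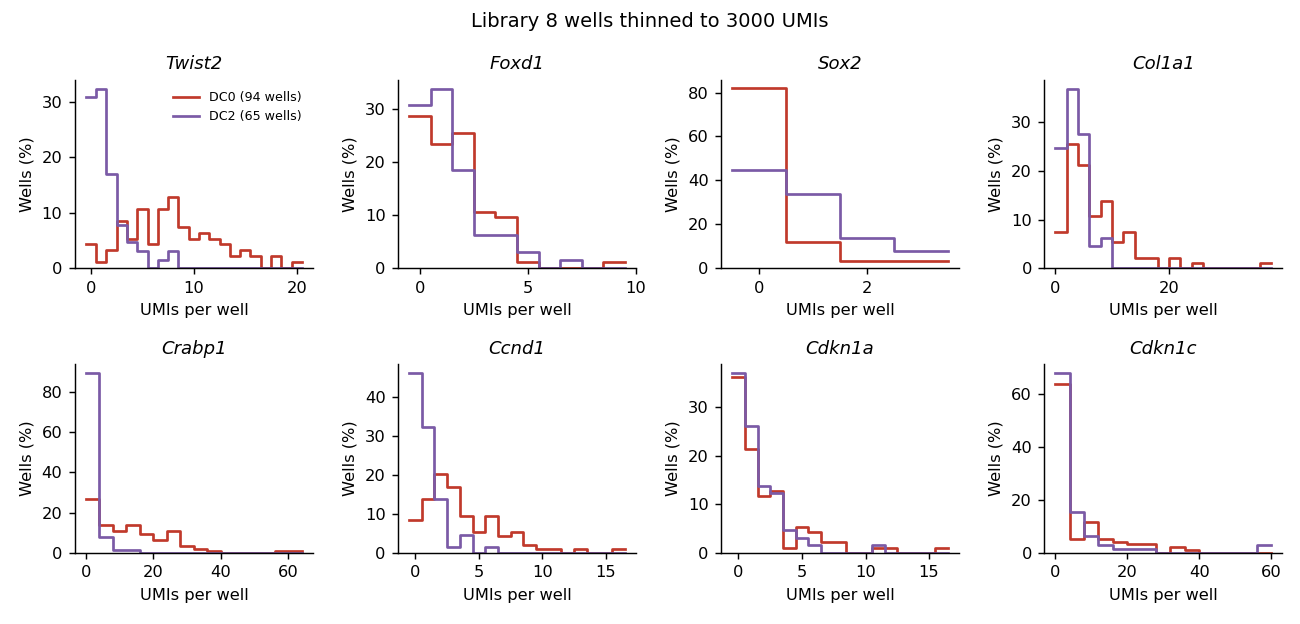
Share of wells (%) by UMIs per well for 8 genes in DC0 (red, 94 wells) and DC2 (purple, 65 wells) of library 8, each well thinned to 3000 UMIs, in bins of 1 UMI, of 2 UMIs for Col1a1 and of 4 UMIs for Crabp1 and Cdkn1c. Twist2, Crabp1 and Ccnd1 reach higher values in DC0 wells, and Sox2 is at 0 in most DC0 wells.

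A minority of DC0 wells carried division genes, and those wells had lower levels of cell cycle inhibitors and condensate signals. Mki67 was seen in 22 of 94 DC0 wells of library 8 (23.4%, interval 15.3% to 33.3%) and 4 of 21 in libraries 1 to 7, against 3 of 65 DC2 wells of library 8 (4.62%, interval 0.962% to 12.9%) and 472 of 1155 Fb wells (40.9%, interval 38.0% to 43.8%). Cdkn1a was seen in 9 of the 22 DC0 wells with Mki67 and in 51 of the 72 without it. Lef1 was seen in 12 of 22 and 64 of 72, Prdm1 in 3 of 22 and 31 of 72, and Ccnd1 in 16 of 22 and 70 of 72.

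Other genes of DC0 lay both ways. Fst was seen in 11 of the 22 wells with Mki67 and 19 of the 72 without, Bmp4 in 7 and 37 (31.8% and 51.4%), Sox2 in 2 and 15 (9.09% and 20.8%), and eGFP in 2 and 19 (9.09% and 26.4%). Closer together were Twist2, Foxd1 and Fgf10. Twist2 was seen in 21 of the 22 wells with Mki67 and 69 of the 72 without (95.5% and 95.8%), Foxd1 in 15 and 52 (68.2% and 72.2%), and Fgf10 in 13 and 39 (59.1% and 54.2%). The median depth before thinning was 16430 UMIs in wells with Mki67 and 13973 UMIs in wells without. These are cells of 1 library, so the shares are descriptions with no test between them.

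Summed over lists, genes of condensate signals took 0.209% of UMIs in the median DC0 well of library 8 with Mki67 and 0.315% in the median well without. Cell cycle inhibitors took 0.296% and 0.515%, and upper dermis genes 0.619% and 1.09%, with and without Mki67. The 4 and 17 wells of libraries 1 to 7 lay in the same order, with medians of 0.186% and 0.388% for condensate signals and 0.240% and 0.469% for cell cycle inhibitors. Values overlapped in each case, since wells without a Mki67 UMI held as little as 0.0846% condensate signals in library 8.

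**Figure D5:**
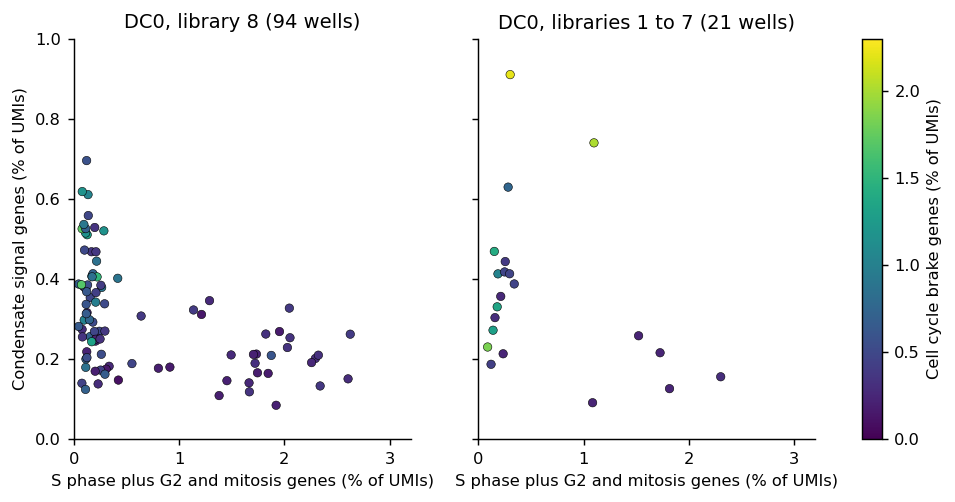
Share of UMIs (%) in condensate signal genes (vertical axis) against the share in S phase plus G2 and mitosis genes (horizontal axis) for single DC0 wells of library 8 (left) and libraries 1 to 7 (right), coloured by the share in cell cycle brake genes. Most wells lie in a column at the left that spans nearly all heights, and most wells farther right lie in its lower part, with exceptions such as a bright well high up in the right panel.

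Set against the quartiles of Fb wells, most DC0 wells lay outside the middle range for matrix and signal genes. In 87 of 94 DC0 wells of library 8 the share of fibroblast matrix genes was below the lower quartile of Fb wells, and in 19 of 21 DC0 wells of libraries 1 to 7. The median was 2.94% of UMIs in DC0 wells of library 8 and 3.02% in those of libraries 1 to 7, against 6.72% in Fb wells. One DC0 well of library 8 reached 9.37% and lay above the upper quartile of 8.94%. After thinning that well had 36 UMIs of Col1a1, the most of any DC0 well of library 8. It had 0 UMIs of Foxd1, Sox2, Prdm1 and Lef1 and 2 of Twist2. Its part in the spread of matrix genes was not tested. Condensate signals lay above the upper quartile of Fb wells in 70 of 94 and 17 of 21 DC0 wells, and WNT pathway genes in 84 and 18. For G2 and mitosis genes 58 of 94 DC0 wells of library 8 lay below the lower quartile and 15 above the upper quartile.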

How the data were processed

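Per the labels' protocols, live cells of E15.0 back skin were sorted into plates, and RNA was counted by SORT-seq on a NextSeq500. The authors deposited 1 table of expected counts per gene and well, with 20370 rows (86 spike-in RNAs and 20284 genes) and 1967 wells. Per the submitters' processing notes, BWA 0.6.2-r126, Cufflinks 2.1.1, Bowtie2 and TopHat2 2.0.3 were used without a stated role, on build mm10. All 7480233 values above 0 lay within 0.005 of UMI counts corrected for collisions among 4096 barcodes. Rounding to whole numbers, done before the count tests, changed 13.5% of these values.

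Wells under 1000 UMIs and wells named for spike-ins were left out, and the 12 bulk samples were not analysed here. No doublet caller was run. Plates share 367 of 368 well numbers, and 0 pairs of wells held identical values. Kept wells were summed by population and library (2 wells or more), which gave DC0 sums of 20707 to 191382 UMIs in libraries 1 to 7 and 1464686 in library 8.

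Sums of libraries 1 to 8 were fitted with edgeR 4.0.16 in R 4.3.3 (TMM scaling, filterByExpr, quasi-likelihood test, Benjamini-Hochberg threshold 0.05), with DESeq2 1.42.0 as an alternative. Library was a block, since sums with the same number come from the same plate. Library 9, with DC1 wells only, was not in the fit. The edgeR fit was tested on simulated data with changes placed in DC0. It recovered 59% of 2-fold changes against DC1, 63% against DC2, 83% against Fb and 86% against the mean of the others. False calls numbered 7 to 12 among 2140 genes. Many 2-fold changes against DC1 would therefore be missed. Wells were thinned to 3000 UMIs with numpy 2.4.6. Gene positions are from the mm10 annotation.

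Named genes had an adjusted p under 0.05, a fold change of at least 1 (log2), an average of at least 5 (log2 CPM) and 1 direction in every library, the 12 largest of each direction against Fb and the 8 largest against DC1 and DC2. Genes extreme in DC0 were the 8 largest of each direction whose fitted level lay outside the other 3 populations by 0.5 log2. The 15 most variable genes, the listed genes seen in at least 95% of wells, the markers, members of each list with large folds and well-known targets were also named. Lum, Nrtn, Spred1 and other list members beyond that rule were chosen after their values were seen. The DC0 wells and all gene lists were chosen with earlier results of these data known.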

Additional observations from a re-analysis of the deposited data

Results flagged for a closer look

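Among 66 named genes, 19 had 1 of the 8 DC0 sums far above the rest, with a gap to the next sum of over 0.526 of the whole range. For 8 values from 1 normal distribution such a gap arises in about 1 of 20 groups. That rate does not apply here, since these are untransformed CPM of sums of unequal depth. All 19 gaps were at the high end, and some rest on few molecules (3 UMIs for Dll1, 4 for Kitl). The number of flagged genes is therefore a description. Library 4 (3 wells) had the high sum of 5 genes: Foxd1 at 892 CPM, Lef1 at 1641 CPM, Prdm1 at 777 CPM, Ccnd1 at 3281 CPM and Pdlim3 at 86.4 CPM.

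Library 7, whose DC0 sum has 2 wells, had the high sum of 6 genes. They were the division gene Mki67 at 1617 CPM, Sfrp2 at 231.0 CPM and Olfml3 at 200.2 CPM, Apod at 108 CPM, Csrp2 at 123 CPM and Cxcl1 at 61.6 CPM. In that sum 60704 of 64925 UMIs came from 1 well, in which Mki67 was seen after thinning. Its high and low values are thus mostly those of 1 cell. Library 2 stood out for Atf3 at 1497 CPM and Axin2 at 338 CPM. Library 1 stood out for Fgf10 at 861 CPM and Kitl at 164 CPM, and library 6 for Glis1 at 624.5 CPM and Dll1 at 74.9 CPM. Library 8 was highest for Cxcr4 at 57.4 CPM and for Lox at 4.78 CPM, which was at 0 UMIs in the other 7. A single UMI in any of those 7 sums is worth at least 5.225 CPM, so they could not show the Lox level of library 8.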

How the results depend on the processing

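Calls against Fb, DC1, DC2 and the mean of the other populations numbered 569, 27, 381 and 133. With no filter on low counts (18745 genes tested) they were 1561, 56, 740 and 186, and the higher share of calls against Fb was 20.6% in place of 48%, with a median fold change over all genes of -0.52 (log2). With wells thinned to 3000 UMIs only 280 genes passed the filter, and calls were 87, 3, 70 and 21. Within the shared sequencing run calls were 410, 2, 150 and 44, and outside it 221, 0, 77 and 48, each with fewer sums. Leaving out 1 library at a time gave 444 to 561, 17 to 32, 219 to 413 and 88 to 195. With no replicate block they were 665, 26, 386 and 170, with RLE scaling in edgeR 573 against Fb, with DESeq2 623, 33, 408 and 191, and without ribosomal RNA rows, an alternative chosen after seeing the data, 570, 28, 376 and 139.

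Of 115 results for named genes 80 kept their direction and side of the threshold in each alternative that tested them, and none changed sign as a called result. The 38 variable genes became 95 at 5000 UMIs and 104 at a ratio of at least 2. The 11 listed genes seen in 95% of wells became 18 at 5000 UMIs and 17 without thinning. Small DC0 sums limit the comparisons in libraries 1 to 7, where 1 UMI is worth up to 48.3 CPM.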

Other observations

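Several imprinted genes that were lower in DC0 than in Fb sums also varied between DC0 wells of library 8. The fold changes were -2.79 for Igf2, -2.13 for Dlk1 and -1.64 for H19, all smaller than the 12 largest falls. H19, a noncoding RNA transcribed beside Igf2, had 0 to 34 UMIs per thinned DC0 well of library 8 with a median of 2 and a variance over mean of 7.14. Igf2, a fetal growth factor, had 0 to 25 UMIs with a median of 0.5 and a ratio of 7.19. At so low a median, 1 or a few high wells can carry such a ratio. Dlk1, a transmembrane regulator of mesenchymal differentiation, had 0 to 19 UMIs with a median of 2 and a ratio of 3.26. In DC0 wells of libraries 1 to 7 the ratios were 5.52 for H19, 1.63 for Igf2 and 3.91 for Dlk1. In Fb wells, where these genes were higher, the ratios were larger, at 10.9, 10.6 and 9.08 in the same order.

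Some basement membrane genes were higher in DC0 than in Fb sums and lower than in DC2 sums. Lama2, Col4a1, Col4a2 and Nid1 were higher in DC0 than in Fb sums, where Sparc and Lama4 were lower. Against DC2 sums, Col15a1, Agrn, Nid1, Lama2 and Col4a2 were lower in DC0 and 0 of the 11 tested were higher. The genes on both sides were Lama2, Nid1 and Col4a2. The calls of Nid1 against Fb and of Col15a1 and Col4a2 against DC2 were lost in 6, 6 and 5 alternatives.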
